A study of Mus musculus with 2 samples.

Results

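Mitf, Sox10, Pax3, Kit, Ednrb, Mc1r, Cited1 and Kcnj13, 8 genes of the melanocyte lineage, were followed in single cells of mouse epidermal cultures whose labels differ in Bap1. Bap1 encodes a nuclear enzyme that removes ubiquitin from histone H2A. Each of the 8 was found by its NCBI gene identifier, and all 8 were among the 36528 genes of both count tables. The genes were picked by name with their levels in these libraries already known, so their differences are given as descriptions. The cells came from C57BL/6 neonates at postnatal day 1. The library labelled knockout (Bap1_KO) held pooled cells of 9 neonates with floxed Bap1 alleles (Bap1fl/fl) and Rosa26-CreERT2, a tamoxifen-inducible recombinase at the Rosa26 locus. The library labelled wild type (Bap1_WT) held pooled cells of 11 neonates with Rosa26-CreERT2 alone, so both carried the recombinase. To switch on the recombinase, both cultures were given 4-OHT (4-hydroxytamoxifen) over 4 days at 100 nM and kept for 3 more days without it, in M254 medium with human melanocyte growth supplement. Each pool gave 1 droplet library that counts the 3′ ends of RNA by unique molecular identifiers (UMIs).

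In melanocytes, Mitf is the transcription factor that drives the genes of melanin synthesis, and Sox10 and Pax3, factors of the neural crest, act upstream of it. Kit, Ednrb and Mc1r are surface receptors through which stem cell factor, endothelins and melanocyte-stimulating hormone act on these cells. Cited1 is a transcriptional co-regulator of CBP and p300 that is found in melanocytes, and Kcnj13 encodes the inwardly rectifying potassium channel Kir7.1, which in zebrafish is needed for normal stripe patterning. Sox10 and Pax3 are also used by Schwann cells and their precursors, while Kit is also known from mast cells.

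Bap1_KO held 64954113 UMIs in 1760 cells and Bap1_WT 77579465 in 1926, with medians of 33585 and 37223 UMIs per cell and minimums of 8776 and 10065. With 1 library per genotype no test was possible, and each 95% interval covers counting error only. Bap1 RNA itself went against the labels: in keratin-rich cells it was at 19.6 CPM (UMIs of the gene per 1000000 UMIs of the class) in Bap1_KO and 14.0 CPM in Bap1_WT. A 3′ tag can lie outside the deleted part of a gene and then checks nothing, so every direction below rests on the labels. The libraries shared 3 cell barcodes, none of them in the melanocytes described here.

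The melanocytes were taken as the cells with at least 20000 CPM of the pigment genes Dct, Pmel, Mlana and Tyrp1 together, a threshold chosen with values seen that uses none of the 8 genes. This gave 54 pigment-high cells in Bap1_KO (3.11% of 1739 cells kept) and 21 in Bap1_WT (1.10% of 1911). The lowest cell over the threshold had 20166 pigment CPM in Bap1_KO and 21108 in Bap1_WT, and the highest cell under it had 14283 in Bap1_KO and 18888 in Bap1_WT. Of these cells, 53 in Bap1_KO and 20 in Bap1_WT also lay in a melanocyte-like cluster that was built without the 8 genes and carried all 12 melanocyte markers. The other cell of Bap1_KO lay in a keratin-rich cluster and had 895 Krt14 UMIs, and the other cell of Bap1_WT was Schwann-like. Markers of mast, T and Merkel cells had 0 UMIs in the pigment-high cells of both libraries, which left Kit with no mast cell marker beside it. Schwann cell markers together were at 686 CPM in these cells of Bap1_KO (7 of 10 with a UMI) and 818 CPM in those of Bap1_WT (8 of 10 with a UMI), and basal keratinocyte markers at 1912 CPM in Bap1_KO and 630 CPM in Bap1_WT. Of the 1192 basal keratinocyte UMIs of Bap1_KO, 895 were the Krt14 UMIs of that 1 cell, and the median cell held 368 CPM of these markers in Bap1_KO and 578 CPM in Bap1_WT. With the cells outside the melanocyte-like cluster left out, the log2 ratios of Bap1_KO over Bap1_WT given next were 3.55 for Kcnj13 and 1.46 for Cited1. The median depth was 10317 UMIs per pigment-high cell in Bap1_KO and 10889 in Bap1_WT. These medians lie near the shallowest deposited cell, which had 8776 UMIs in Bap1_KO and 10065 in Bap1_WT. With cells under 10065 UMIs left out, pigment-high cells numbered 28 in Bap1_KO and 21 in Bap1_WT. Keratin-rich cells of Bap1_KO went only from 1598 to 1576. The shares of pigment-high cells given above therefore depend on depth, and no difference in melanocyte number is read from them.

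Between the libraries, Kcnj13 and Cited1 stood apart from the other 6 genes. Both were higher in the pigment-high cells of Bap1_KO, Kcnj13 by 11.9-fold and Cited1 by 2.80-fold, while the log2 ratios of Mitf, Sox10, Pax3, Kit, Ednrb and Mc1r all had intervals that include 0. At a threshold of 1.5-fold, 2 of the 8 genes were higher in Bap1_KO, against a background of 14.6% of the 5662 genes with at least 20 UMIs in these cells. Mc1r alone was past 1.5-fold lower, against a background of 12.8%, and this rested on 25 UMIs in Bap1_KO and 15 in Bap1_WT. A gene of few UMIs can pass 1.5-fold within its counting interval, as Mc1r did, so neither count separates differences from counting error. The median log2 ratio was −0.03 over the 8 genes and 0.02 over all 5662. The genes were chosen with these values known, so the counts are no independent evidence.

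**Figure D1:**
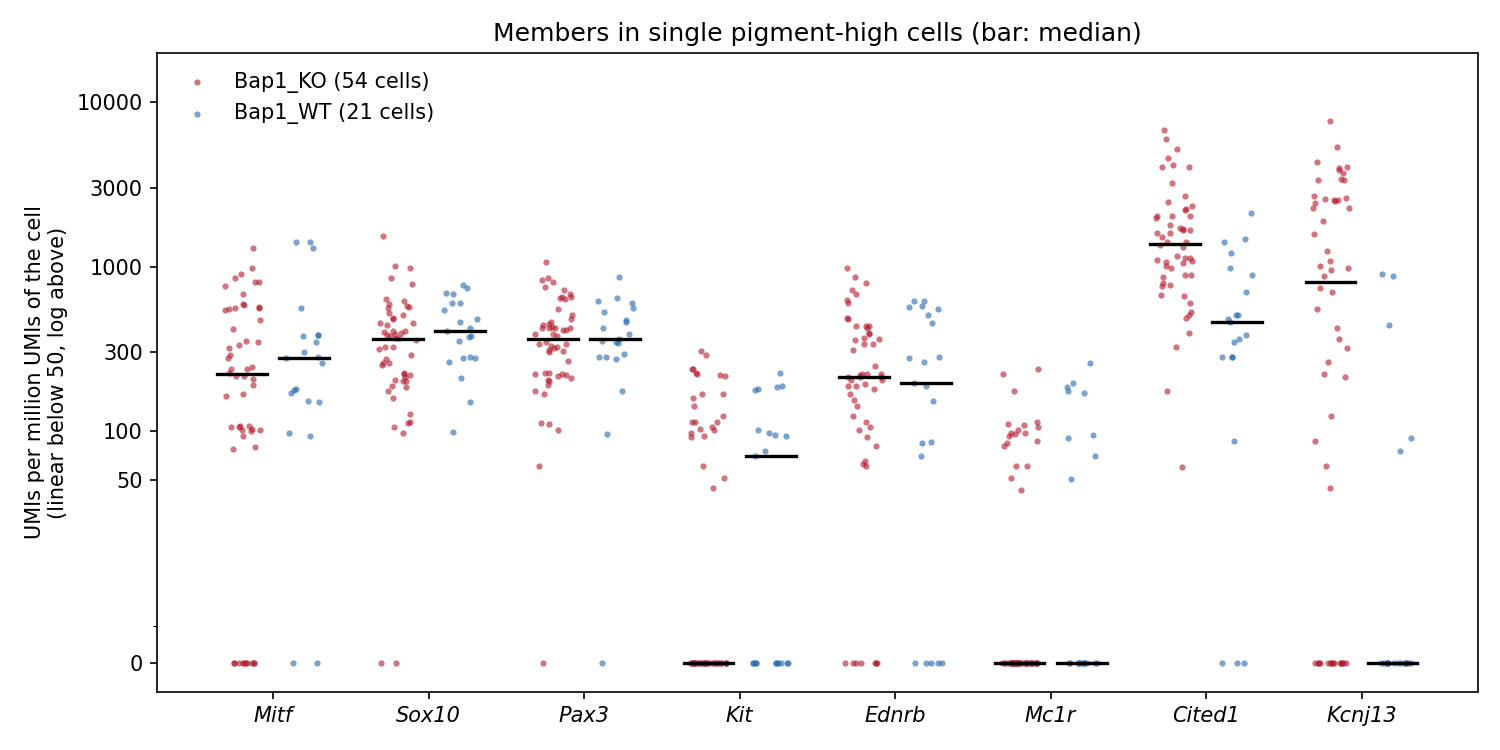
Level of each of the 8 genes in single pigment-high cells, in CPM of the cell (vertical axis linear below 50 and logarithmic above), with the 54 cells of Bap1_KO left of the 21 cells of Bap1_WT and a bar at each median. The Kcnj13 median was 811 CPM in Bap1_KO and 0 in Bap1_WT, while the bars of Sox10 and Pax3 lie close together.

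Mitf, the transcription factor of the pigment programme (NCBI gene 17342, chr6:97807002-98021360 on the + strand of GRCm38), had 191 UMIs in the pigment-high cells of Bap1_KO and 95 in those of Bap1_WT. This was 306 CPM (264 to 353) in Bap1_KO and 386 CPM (313 to 472) in Bap1_WT, a log2 ratio of −0.34 (−0.70 to 0.035). Per cell it ranged over 0, 221 and 1296 CPM (lowest, median and highest) in Bap1_KO and over 0, 279 and 1409 CPM in Bap1_WT. The cells of the libraries overlapped over nearly the whole range. A Mitf UMI was seen in 44 of 54 cells of Bap1_KO and 19 of 21 cells of Bap1_WT. With every cell thinned to 5000 UMIs the share was 68.5% in Bap1_KO and 81.0% in Bap1_WT, against a thinned 1.69% of keratin-rich cells in Bap1_KO and 2.29% in Bap1_WT. Keratin-rich cells, taken as the background, had median depths of 35714 UMIs in Bap1_KO and 39773 in Bap1_WT before thinning. Its gene overlaps Gm15531 on the opposite strand, and the sources do not say whether counting used strand.

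Sox10, the neural crest factor upstream of Mitf (20665, chr15:79154913-79164490, − strand), had 238 UMIs in Bap1_KO and 105 in Bap1_WT. It was at 382 CPM (335 to 433) in Bap1_KO and 427 CPM (349 to 517) in Bap1_WT, a log2 ratio of −0.16 (−0.50 to 0.18). It was seen in 52 of 54 cells of Bap1_KO and in all 21 of Bap1_WT, with cell medians of 362 CPM in Bap1_KO and 405 CPM in Bap1_WT. Pax3, the paired-domain factor that acts with Sox10 (18505, chr1:78101267-78197136, − strand), had 393 CPM (345 to 445) in Bap1_KO and 395 CPM (320 to 481) in Bap1_WT. Its log2 ratio was −0.0060 (−0.35 to 0.35), and its cell medians were 363 CPM in Bap1_KO and 360.5 CPM in Bap1_WT. A Pax3 UMI was in 53 of 54 cells of Bap1_KO and 20 of 21 of Bap1_WT. After thinning, Sox10 was in 88.9% of cells of Bap1_KO and 95.2% of Bap1_WT, and Pax3 in 88.9% of Bap1_KO and 81.0% of Bap1_WT. Cells with UMIs of Mitf, Sox10 and Pax3 together numbered 44 of 54 in Bap1_KO and 18 of 21 in Bap1_WT. The 3 factors thus were carried together by most of the melanocytes of both libraries.

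Among the receptors, Ednrb, the endothelin receptor of the melanocyte lineage (13618, chr14:103814615-103844508, − strand, overlapping Gm35197), had 163 UMIs in Bap1_KO and 65 in Bap1_WT. Its level was 261 CPM (223 to 305) in Bap1_KO and 264 CPM (204 to 337) in Bap1_WT, a log2 ratio of −0.016 (−0.44 to 0.42). Cells with an Ednrb UMI made up 47 of 54 in Bap1_KO and 16 of 21 in Bap1_WT. After thinning, Ednrb was left in 75.9% of cells of Bap1_KO and 52.4% of Bap1_WT. Kit, the receptor for stem cell factor (16590, chr5:75574987-75656722, + strand), was sparse, with 44 UMIs in 25 cells of Bap1_KO and 18 UMIs in 11 cells of Bap1_WT. It was at 70.6 CPM (51.3 to 94.7) in Bap1_KO and 73.2 CPM (43.4 to 116) in Bap1_WT, a log2 ratio of −0.053 (−0.87 to 0.83). No cell of either library held more than 3 Kit UMIs. Mc1r, the receptor for melanocyte-stimulating hormone (17199, chr8:123407082-123410744, + strand), was at 40.1 CPM (26.0 to 59.2) in Bap1_KO and 61.0 CPM (34.1 to 101) in Bap1_WT. The Mc1r log2 ratio was −0.61 (−1.59 to 0.42). It was seen in 19 of 54 cells of Bap1_KO and 9 of 21 cells of Bap1_WT. In a single random thinning of cells to 5000 UMIs its direction turned round, to a log2 ratio of 0.75. No direction is therefore given for Mc1r on so few UMIs.

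Cited1, the co-regulator of CBP and p300 (12705, chrX:102247378-102252181, − strand), was seen in all 54 pigment-high cells of Bap1_KO with 1086 UMIs, and in 18 of 21 cells of Bap1_WT with 153 UMIs. Per cell it ranged over 60.02, 1381 and 6787 CPM in Bap1_KO and over 0, 462 and 2114 CPM in Bap1_WT. The middle 50% of cells spanned 868 to 2037 CPM in Bap1_KO and 282 to 886 CPM in Bap1_WT, so the upper quartile of Bap1_WT lay near the lower quartile of Bap1_KO, although the ranges overlapped. Summed over cells Cited1 was at 1742 CPM (1640 to 1849) in Bap1_KO and 622 CPM (528 to 729) in Bap1_WT, a log2 ratio of 1.48 (1.24 to 1.74). This ranked 106 from the highest of 5662 genes, where a gene with no UMI in a library was set to a floor of 3 UMIs. After thinning, a Cited1 UMI was left in 96.3% of cells of Bap1_KO and 81.0% of Bap1_WT, against 5.01% of keratin-rich cells in Bap1_KO and 2.46% in Bap1_WT.

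Kcnj13, the gene of the channel Kir7.1 (100040591, chr1:87384577-87394729, − strand), showed the widest gap between the libraries. It had 872 UMIs in Bap1_KO and 29 in Bap1_WT, which gave 1399 CPM (1307 to 1495) in Bap1_KO and 118 CPM (79.0 to 169) in Bap1_WT. The log2 ratio was 3.57 (3.03 to 4.15), the second highest of 5662 genes after that of Ptgs2, which rested on 38 UMIs in Bap1_KO and 1 in Bap1_WT. A gene with no UMI in a library was ranked with a floor of 3 UMIs. Such a gene in Bap1_WT could therefore fall below one with 1 UMI there. Kcnj13 was seen in 40 of 54 cells of Bap1_KO, or 74.1% (60.3% to 85.0%, Clopper-Pearson), and in 5 of 21 cells of Bap1_WT, or 23.8% (8.22% to 47.2%). Cells with at least 10 Kcnj13 UMIs numbered 26 of 54 in Bap1_KO and 2 of 21 in Bap1_WT, and the highest cell held 72 UMIs in Bap1_KO and 12 in Bap1_WT. The cells of Bap1_KO were themselves uneven, with 14 cells at 0 and an upper quartile of 2557 CPM. Thinned to 5000 UMIs, 68.5% (54.4% to 80.5%) of cells in Bap1_KO and 19.0% (5.45% to 41.9%) in Bap1_WT kept a UMI, against 5.63% of keratin-rich cells in Bap1_KO and 0.914% in Bap1_WT. A single cell held 12 of the 29 UMIs of Bap1_WT, and with the top cell left out on both sides the Kcnj13 log2 ratio was 4.18.

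Kcnj13 lies inside Gigyf2, a gene on the other strand. Gigyf2 itself had 24.1 CPM in the pigment-high cells of Bap1_KO and 24.4 CPM in those of Bap1_WT, from 15 UMIs in Bap1_KO and 6 in Bap1_WT. Kcnj13 had 872 UMIs in the same cells of Bap1_KO and 29 in those of Bap1_WT. In keratin-rich clusters Gigyf2 was at 22.4 CPM in Bap1_KO and 18.1 CPM in Bap1_WT, above the Kcnj13 level in both libraries, and its part in the Kcnj13 counts there was not tested. Bap1_KO also held shallower cells, since 26 of its 54 pigment-high cells had fewer than the 10065 UMIs of the shallowest cell of Bap1_WT. Kcnj13 was at 1214 CPM in the 28 deeper cells and 1689 CPM in the 26 shallower cells of Bap1_KO, and was seen in 21 of 28 and 19 of 26 of them. Cited1 was at 1686 CPM in the deeper and 1829 CPM in the shallower cells. No cell of Bap1_WT lay below that depth, so the shallower cells of Bap1_KO have no counterpart.

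**Figure D2:**
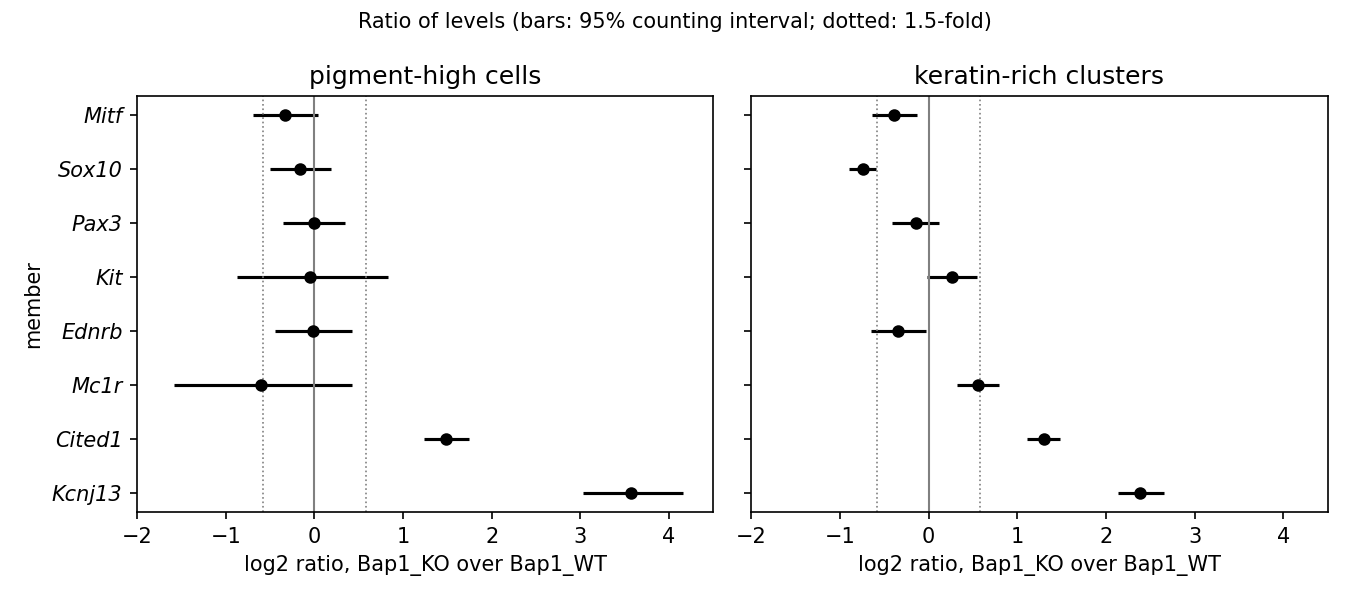
Log2 ratio of the level in Bap1_KO over that in Bap1_WT for each gene, in pigment-high cells (left) and in keratin-rich clusters (right), with 95% counting intervals and dotted lines at 1.5-fold. Kcnj13 and Cited1 lie to the right of 0 in both panels, at 3.57 and 1.48 in pigment-high cells and 2.39 and 1.30 in keratin-rich clusters.

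The starts of these genes are shown to give the sequence context of the members that differed, Kcnj13 and Cited1, and of the most downstream listed start of Mitf, the one known to be used in melanocytes. Windows came from RefSeq (GRCm38.p6), which listed starts for 6 of the 8 genes, and only the 250 bases before each start were read. The motifs were searched on both strands, no motif contains another, and no matches overlapped. Capitals mark a match of CATGTG, the core of the M-box bound by Mitf, of CACGTG, of the cAMP response element TGACGTCA, or of the Sox motifs ACAAAG and ACAATG.
Kcnj13, chr1:87394730-87394979, − strand: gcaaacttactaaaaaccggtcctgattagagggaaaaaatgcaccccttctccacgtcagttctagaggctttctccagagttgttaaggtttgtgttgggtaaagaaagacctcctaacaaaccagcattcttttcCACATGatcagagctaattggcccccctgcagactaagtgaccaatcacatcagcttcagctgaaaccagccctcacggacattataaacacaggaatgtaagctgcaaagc
Cited1, chrX:102251844-102252093, − strand: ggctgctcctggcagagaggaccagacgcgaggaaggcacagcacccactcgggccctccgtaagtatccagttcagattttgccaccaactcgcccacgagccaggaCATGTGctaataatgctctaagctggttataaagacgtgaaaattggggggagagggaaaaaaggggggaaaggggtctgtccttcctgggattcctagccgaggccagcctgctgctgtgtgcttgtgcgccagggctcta
Mitf, chr6:97991533-97991782, + strand: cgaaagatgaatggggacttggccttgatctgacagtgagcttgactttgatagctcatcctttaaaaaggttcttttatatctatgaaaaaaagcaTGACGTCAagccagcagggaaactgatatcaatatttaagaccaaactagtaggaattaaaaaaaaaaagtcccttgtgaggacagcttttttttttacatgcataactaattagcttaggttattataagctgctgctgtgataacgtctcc

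The Kcnj13 window held CATGTG on the other strand (CACATG as printed), beginning 112 bases before the start. The Cited1 window, 1 of 3 listed for that gene, held CATGTG 142 bases before the start, and the other 2 held none of the motifs. Mc1r held 2 matches of CATGTG, 62 and 51 bases before its start. CATGTG was present in 12.3% of 32851 windows of the same length, so such a match is common. The Mitf window held TGACGTCA 153 bases before the start, a motif found in 1.55% of all windows, and the other 2 Mitf windows held none. Kit and Ednrb windows held no match to any of the 5 motifs. CACGTG was in 6.02% of all windows, ACAAAG in 16.5% and ACAATG in 10.7%. A match is a description of letters and shows no binding, and counts of 3′ ends do not tell which start was used.

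Across cell types, each of the 8 genes was highest in pigment-high cells except Sox10, whose level in Schwann-like cells was as high or higher. Schwann-like cells, named from a cluster with 7 Schwann cell markers and no use of the 8 genes, numbered 36 in Bap1_KO and 59 in Bap1_WT, with median depths of 11070 and 12363 UMIs. Sox10 was at 513 CPM (448 to 585) there in Bap1_KO and 444 CPM (399.8 to 492.5) in Bap1_WT. In Bap1_KO its log2 ratio of pigment-high over Schwann-like cells was −0.43 (−0.70 to −0.16), and in Bap1_WT it was −0.071 (−0.40 to 0.25), an interval that includes 0. Pax3 was lower in Schwann-like than in pigment-high cells but far from absent, at 140 CPM (107 to 179) in Bap1_KO and 127 CPM (104 to 154) in Bap1_WT. Its UMIs were in 25 of 36 Schwann-like cells of Bap1_KO and 41 of 59 of Bap1_WT. The pigment-high cell that lay in the Schwann-like cluster of Bap1_WT is counted in the levels of both classes and left out of the Schwann-like side of the ratios. Pax3 in pigment-high cells was 2.81-fold the Schwann-like level in Bap1_KO and 3.18-fold in Bap1_WT.

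Mitf separated the same cell types sharply. It had 1 UMI in the Schwann-like cells of Bap1_KO (2.29 CPM, 0.058 to 12.8) and 9 in those of Bap1_WT (11.0 CPM, 5.04 to 20.9). In Bap1_WT Mitf was 34.6-fold higher in pigment-high than in Schwann-like cells. Ednrb was at 25.2 CPM (12.6 to 45.1) in Schwann-like cells of Bap1_KO and 41.6 CPM (28.8 to 58.2) in those of Bap1_WT, and Kit had 1 UMI there in Bap1_KO and 6 in Bap1_WT. Cited1 was at 68.7 CPM (46.3 to 98.1) in Bap1_KO and 28.2 CPM (17.9 to 42.2) in Bap1_WT, a log2 ratio of 1.29 (0.45 to 2.14). Of the 30 Cited1 UMIs of Bap1_KO, 10 lay in 1 Schwann-like cell. Kcnj13 had 0 UMIs in the 36 Schwann-like cells of Bap1_KO, which by the floor of 3 counts allows a share of up to 8.33% of cells with a UMI at this depth, and 1 UMI in Bap1_WT. Against a floor of 3 UMIs over the class, or 6.87 CPM, Kcnj13 was 204-fold higher in pigment-high than in Schwann-like cells of Bap1_KO. The upper 95% limit for 0 UMIs there was 8.45 CPM, so 204-fold is no strict minimum. The Schwann-like cells of Bap1_KO had Tyrp1 at 1321 CPM and those of Bap1_WT at 1333 CPM, and the part of this pigment RNA in the values of the 8 genes was not tested.

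**Figure D3:**
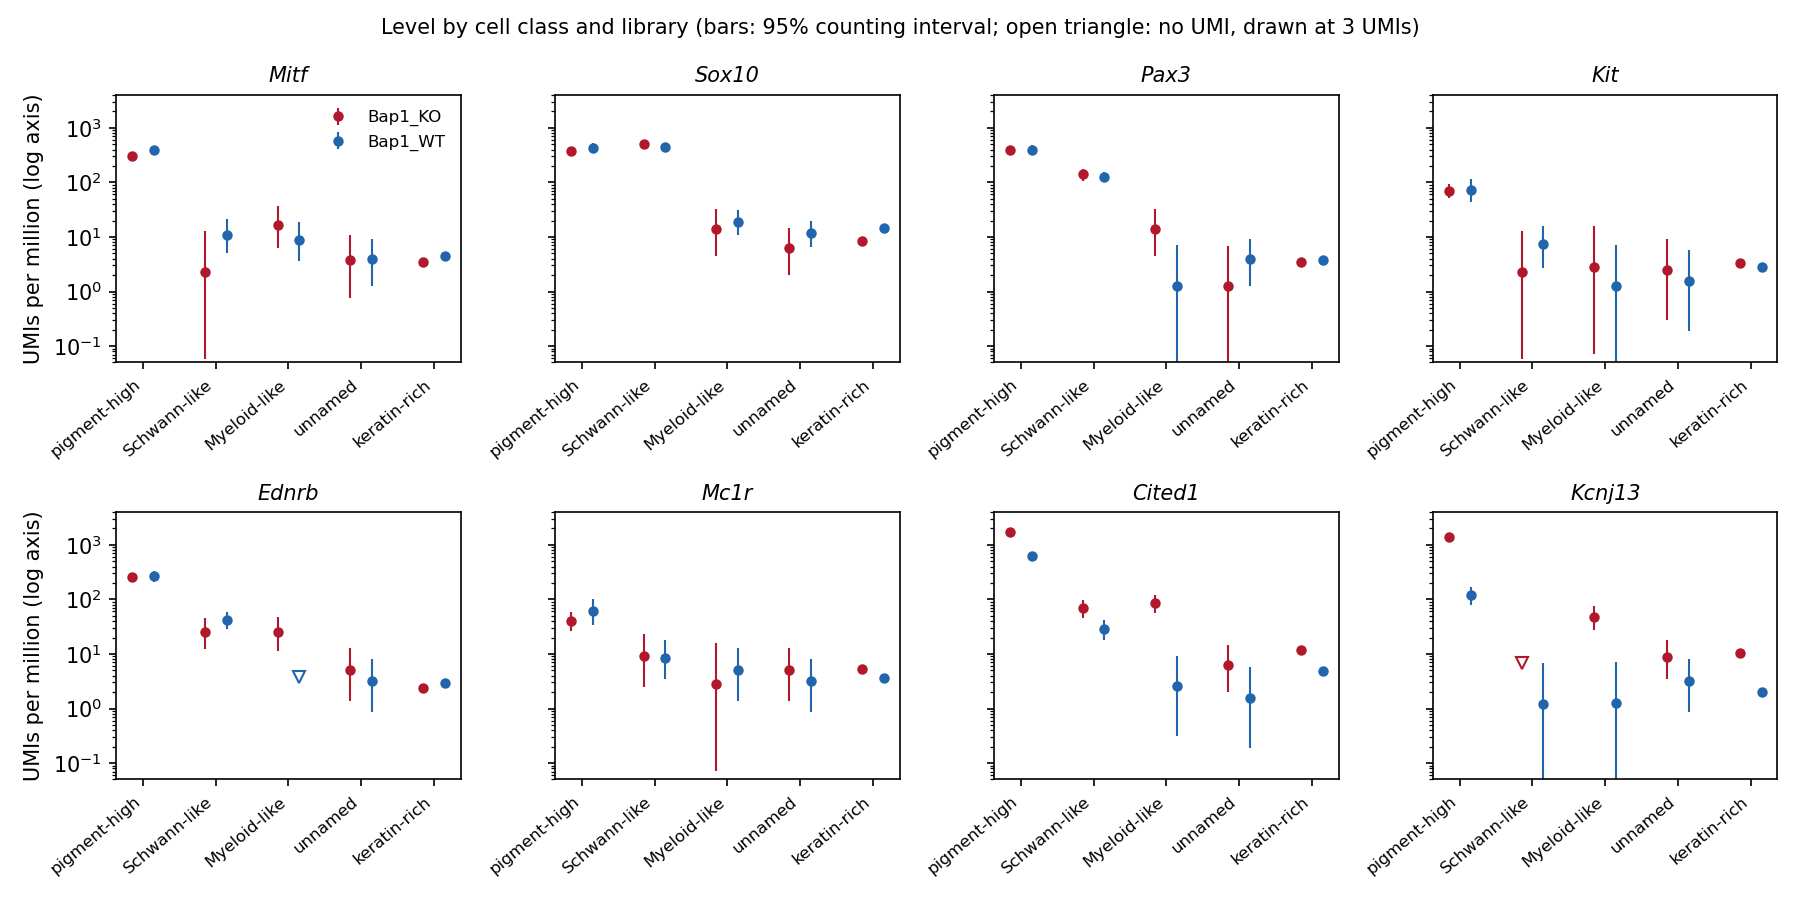
Level of each gene in 5 cell classes, in CPM on a logarithmic axis, with Bap1_KO left of Bap1_WT, 95% counting intervals, and an open triangle at the level of 3 UMIs where none was counted. Sox10 is as high in Schwann-like as in pigment-high cells, while Kcnj13 stands at 1399 CPM in pigment-high cells of Bap1_KO and has no UMI in its Schwann-like cells.

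The remaining small classes held few UMIs of the 8 genes. The 20 myeloid-like cells of Bap1_KO had 17 Kcnj13 and 30 Cited1 UMIs, of which 15 Kcnj13 and 27 Cited1 UMIs were the count of a single cell, in a class whose highest cell reached 14283 pigment CPM. The 36 myeloid-like cells of Bap1_WT had 1 Kcnj13 and 2 Cited1 UMIs. In an unnamed cluster with fibroblast markers, with 29 cells in Bap1_KO and 44 in Bap1_WT, none of the 8 genes exceeded 8.70 CPM in Bap1_KO or 11.8 CPM in Bap1_WT. This cluster may be mixed. At a Leiden resolution of 1, a cluster with 4 skeletal muscle markers (16 cells in Bap1_KO, 19 in Bap1_WT) stood apart. The cluster with fibroblast markers then had 13 cells in Bap1_KO and 25 in Bap1_WT. Levels of all 8 genes in the unnamed cluster as first built and in the keratin-rich clusters, Kcnj13 and Cited1 among them, had counting intervals that overlapped in each library.

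Keratin-rich clusters, which were those with keratinocyte markers or with no named marker set and made up 1598 cells in Bap1_KO and 1750 in Bap1_WT, held low but countable levels of all 8 genes. Kcnj13 was at 10.6 CPM (9.80 to 11.4) in Bap1_KO and 2.02 CPM (1.71 to 2.37) in Bap1_WT, a log2 ratio of 2.39 (2.13 to 2.66). Cited1 was at 11.8 CPM (10.9 to 12.7) in Bap1_KO and 4.78 CPM (4.30 to 5.31) in Bap1_WT, a log2 ratio of 1.30 (1.12 to 1.49). Sox10 was lower, at 8.54 CPM (7.83 to 9.29) in Bap1_KO and 14.3 CPM (13.4 to 15.2) in Bap1_WT, a log2 ratio of −0.74 (−0.90 to −0.59). At 1.5-fold, 2 of the 8 genes were higher and 1 lower, against backgrounds of 7.57% higher and 17.5% lower among 15670 genes. Mc1r was just under the threshold, at 5.26 CPM (4.71 to 5.86) in Bap1_KO and 3.57 CPM (3.15 to 4.03) in Bap1_WT. Mitf had 3.43 CPM in Bap1_KO and 4.49 CPM in Bap1_WT (log2 ratio −0.39, −0.64 to −0.13). Pax3, Kit and Ednrb lay between 2.34 and 3.42 CPM in Bap1_KO and between 2.82 and 3.78 CPM in Bap1_WT. Kcnj13 and Cited1 thus differed in the same direction in keratin-rich and in pigment-high cells. The 4 pigment genes of the threshold had log2 ratios between −0.13 and −0.0029 in keratin-rich clusters. In pigment-high cells, Kcnj13 had 231 UMIs per 10000 UMIs of these 4 genes in Bap1_KO and 19.3 in Bap1_WT. RNA released from such cells as a source of the keratin-rich counts was not tested.

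Set against keratin-rich cells of the same library, pigment-high cells held more of every gene. Cited1 was 148-fold higher in pigment-high cells in Bap1_KO (log2 7.21) and 130.2-fold in Bap1_WT (7.02), and Mitf was 89.2-fold higher in Bap1_KO (6.48) and 86.2-fold in Bap1_WT (6.43). Pax3 and Ednrb were 115- and 114-fold higher in Bap1_KO, and 104- and 89.2-fold higher in Bap1_WT. Kcnj13 was 132-fold higher in Bap1_KO and 58.4-fold higher in Bap1_WT. Sox10, Kit and Mc1r were set apart from keratin-rich cells by less, Sox10 by 44.7-fold in Bap1_KO and 29.9-fold in Bap1_WT, and Kit by 20.8-fold in Bap1_KO and 26.0-fold in Bap1_WT. Mc1r had the smallest ratio of the 8 genes, 7.62-fold in Bap1_KO and 17.1-fold in Bap1_WT.

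The keratin-rich cells of Bap1_KO came mostly from cluster 0 (661 cells) and cluster 5 (410), and those of Bap1_WT from cluster 2 (719) and cluster 1 (448). Within clusters 1, 2, 3 and 4 the Kcnj13 log2 ratio was between 1.93 and 2.62 and the Cited1 log2 ratio between 0.89 and 1.63. In cluster 5 Kcnj13 had 139 UMIs in Bap1_KO and 0 in the 22 cells of Bap1_WT. In cluster 0, with 36 cells of Bap1_WT, Kcnj13 was at 13.7 CPM in Bap1_KO and 13.6 CPM in Bap1_WT, and Cited1 at 14.2 CPM in Bap1_KO and 33.9 CPM in Bap1_WT. Pigment RNA also differed there, with Dct at 95.6 CPM in Bap1_KO and 951 CPM in Bap1_WT. The Bap1_WT values of cluster 0 rested on 16 Kcnj13 UMIs in 4 cells and 40 Cited1 UMIs in 11 cells, and its highest cell had 15803 pigment CPM. On these few cells, cluster 0 did not share the direction seen in the other 5 clusters.

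Within the keratin-rich clusters, cells with over 10 pigment UMIs held 357 of the 660 Kcnj13 UMIs of Bap1_KO and 88 of the 150 of Bap1_WT. Such cells numbered 406 in Bap1_KO and 626 in Bap1_WT, and 39.4% of them in Bap1_KO and 8.47% in Bap1_WT held a Kcnj13 UMI, with up to 27 in a cell of Bap1_KO and 18 in a cell of Bap1_WT. Among cells with 1 to 10 pigment UMIs, 265 of 1170 in Bap1_KO (22.6%, 20.3% to 25.2%) and 59 of 1110 in Bap1_WT (5.32%, 4.07% to 6.80%) held a Kcnj13 UMI, at median depths of 30299 UMIs in Bap1_KO and 29563 in Bap1_WT. No such cell had more than 3 Kcnj13 UMIs. Cited1 was in 24.4% of these cells in Bap1_KO and 9.55% in Bap1_WT, and Sox10 in 20.9% in Bap1_KO and 31.4% in Bap1_WT. Only 21 cells of Bap1_KO and 14 of Bap1_WT had no pigment UMI. Of those, 2 held Kcnj13 in Bap1_KO and 0 in Bap1_WT, where by the same floor 0 allows up to 21.4% of cells with a UMI. The pigment genes themselves were in most keratin-rich cells, Tyrp1 in 86.2% in Bap1_KO and 88.2% in Bap1_WT, and free RNA as a source of the UMIs of the 8 genes was not tested.

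The 8 genes were also set against the UMIs of Dct, Pmel, Mlana and Tyrp1. In Bap1_KO, Kcnj13 had 231 UMIs per 10000 pigment UMIs in pigment-high cells and 398 in keratin-rich cells, and Cited1 had 288 in pigment-high and 442 in keratin-rich cells. In Bap1_WT, Kcnj13 had 19.3 in pigment-high and 72.0 in keratin-rich cells, and Cited1 had 102 in pigment-high and 170 in keratin-rich cells. Compared with the proportion of pigment-high cells, the keratin-rich cells held 1.53 times the Cited1 UMIs in Bap1_KO and 1.67 times in Bap1_WT, and 1.72 times the Kcnj13 UMIs in Bap1_KO and 3.73 times in Bap1_WT. Mc1r and Kit were far above that proportion, Mc1r at 29.8 times in Bap1_KO and 12.7 times in Bap1_WT, and Kit at 10.9 times in Bap1_KO and 8.37 times in Bap1_WT. Sox10 was at 5.08 times in Bap1_KO and 7.28 times in Bap1_WT. Mitf, Pax3 and Ednrb were between 1.98 and 2.55 times in Bap1_KO and between 2.09 and 2.53 times in Bap1_WT. Of the 8 genes, Cited1 came nearest to the proportion of pigment-high cells in both libraries and Mc1r was farthest from it.

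**Figure D4:**
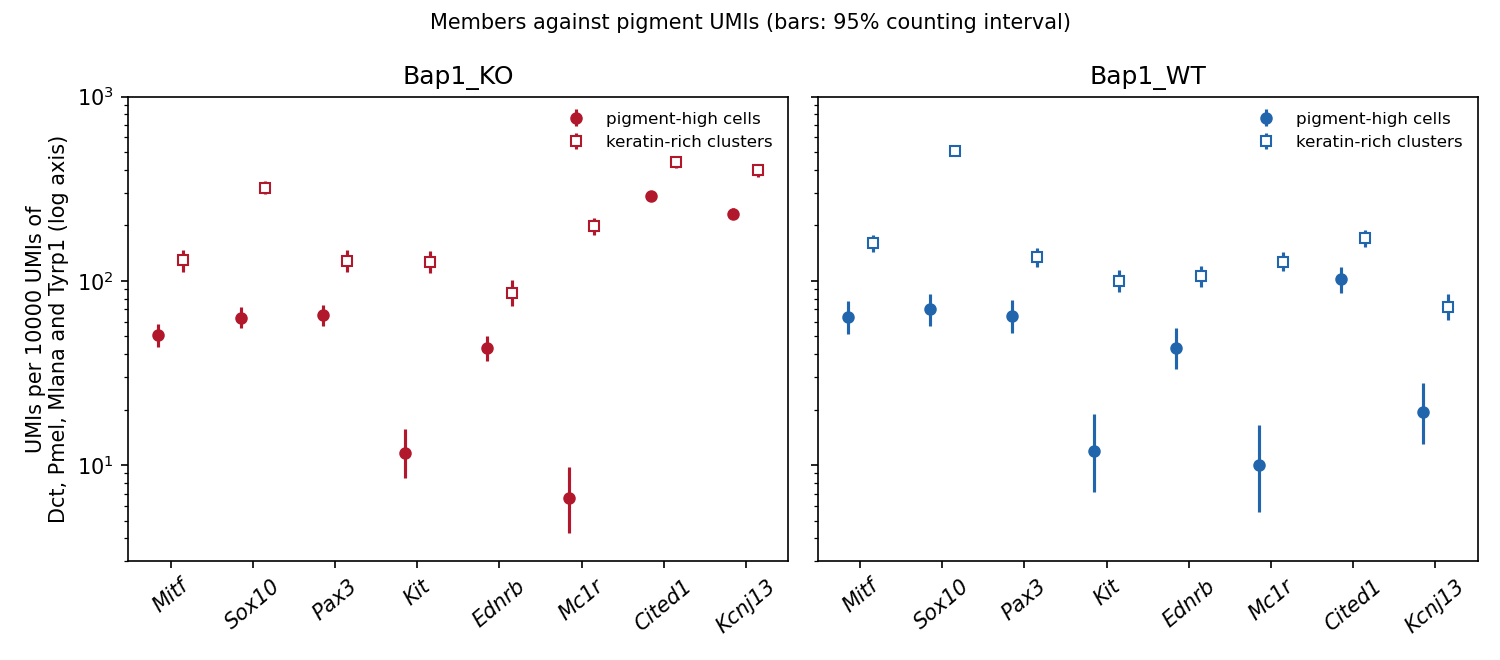
UMIs of each gene per 10000 UMIs of Dct, Pmel, Mlana and Tyrp1 on a logarithmic axis, in pigment-high cells (filled circles) and keratin-rich clusters (open squares), with Bap1_KO in the left and Bap1_WT in the right panel and 95% counting intervals. The gap between the symbols is widest for Mc1r, at 6.63 in pigment-high and 198 in keratin-rich cells of Bap1_KO, and narrow for Cited1.

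Since all 54 pigment-high cells of Bap1_KO and 18 of 21 of Bap1_WT held Cited1, Kcnj13 was set against the level of Cited1 and not its presence. In Bap1_KO, Cited1 was at 1842 CPM in cells with Kcnj13 and 1429 CPM in cells without it. In Bap1_WT it was at 1143 CPM with and 453 CPM without Kcnj13. Bap1_KO cells without Kcnj13 include that of the keratin-rich cluster, with 16662 UMIs, 1 Cited1 UMI and none of Mitf, Sox10 or Pax3. Those of Bap1_WT include the Schwann-like cell, with no Cited1 UMI. Both cells lower the Cited1 level given for cells without Kcnj13. Cited1 was not alone in Bap1_KO, since Pax3 was at 428 CPM with and 283 CPM without Kcnj13. Sox10 went the other way there, at 367 CPM with and 428 CPM without it. The Bap1_WT cells with Kcnj13 numbered only 5 and held 69 Cited1 UMIs, of which single cells held 28 and 19. Across cells the Spearman correlation of Kcnj13 and Cited1 was 0.18 in Bap1_KO (54 cells) and 0.46 in Bap1_WT (21 cells), over cells that share a library and differ in depth. Kcnj13 also followed the summed pigment level, with 0.35 in Bap1_KO and 0.35 in Bap1_WT, and these weak values in sparse counts are given as a description only. Mitf in Bap1_KO was at 307 CPM in cells with Kcnj13 and 303 CPM in cells without it. In Bap1_KO 7 cells had Kcnj13 and no Mitf UMI. A cell held UMIs of a median of 6 of the 8 genes in Bap1_KO and 6 in Bap1_WT, and all 8 were seen in 10 of 54 cells of Bap1_KO and 1 of 21 cells of Bap1_WT.

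**Figure D5:**
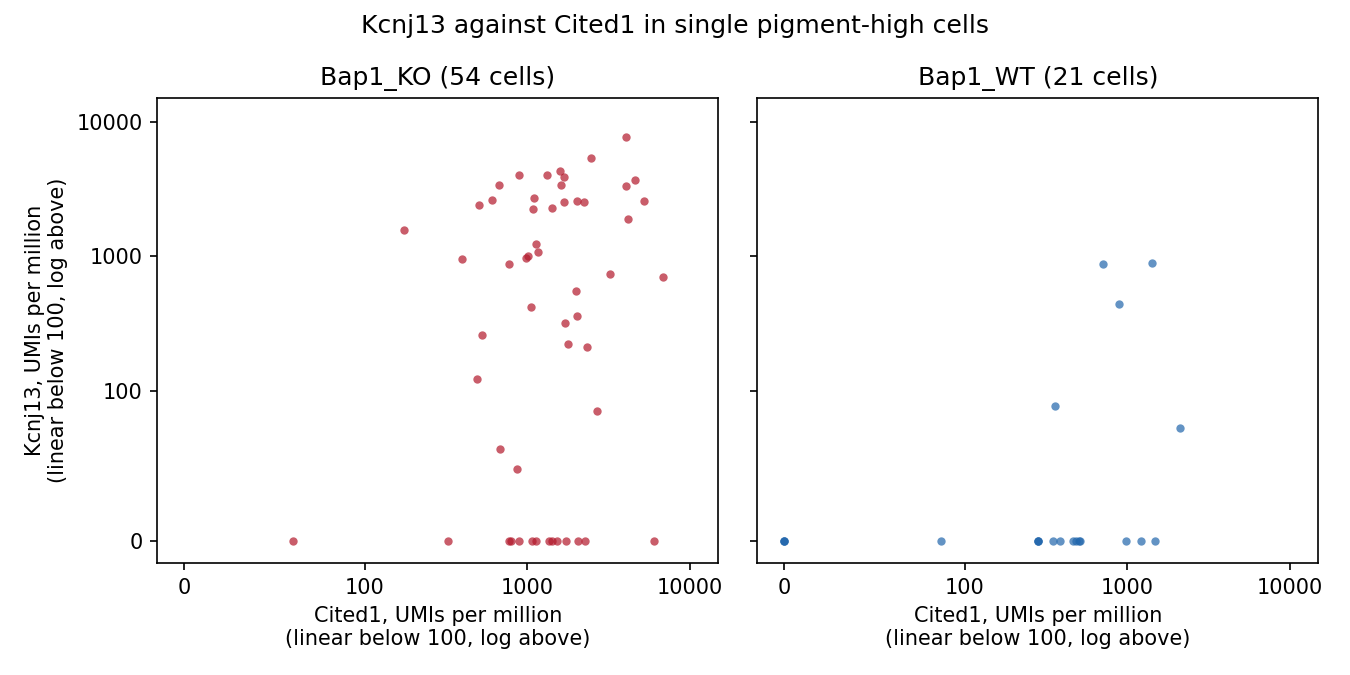
Kcnj13 against Cited1 in single pigment-high cells, both in CPM of the cell (axes linear below 100 and logarithmic above), with the 54 cells of Bap1_KO in the left and the 21 cells of Bap1_WT in the right panel. Kcnj13 is above 0 in 40 cells of Bap1_KO and 5 cells of Bap1_WT, and the cells of Bap1_KO at 0 spread along the Cited1 axis.

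The genes most like each member were ranked by Pearson correlation of log2(CPM + 1) over 20 points (10 clusters in each of 2 libraries) among 13302 genes. The points share libraries and depth, so the values only describe. The genes nearest to Mitf were Slc45a2 (0.97), Tyr (0.97) and Mlana (0.96), which act in melanin synthesis or the melanosome. Among the genes nearest to Sox10 were Ntm (0.98) and E330034G19Rik (0.97). Pax3 was nearest to Tbx2, Tyrp1 and Mlph (0.97 each), Kit to Tyr (0.97), Gpr143 (0.96) and Tspan10 (0.94), and Ednrb to Tyrp1 (0.97), Dnaic1 (0.97) and Tbx2 (0.95). Among those nearest to Cited1 were Dnaic1 (0.96) and Slc24a5 (0.94). Mc1r had lower values, with Cib1 (0.94), Gm16861 (0.92) and Tfeb (0.90), and Kcnj13 the lowest, with Rragc (0.90), Eps8 (0.87) and Rab27a (0.87).

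The melanin and melanosome genes known as targets of Mitf were all measured, and 12 of 14 were within 1.5-fold in the pigment-high cells of the 2 libraries. Dct, Pmel, Mlana and Tyrp1 are among the 14 and also set the threshold that chose these cells. Their likeness between the libraries is therefore partly fixed by that choice. Of all 5662 genes with at least 20 UMIs, 27.4% were past 1.5-fold in either direction. That share was lower among genes with at least 100 UMIs. Trpm1, the sparsest of the 14, had 70 UMIs in Bap1_KO and 32 in Bap1_WT. The 27.4% is thus no matched background for the 14. They are not shown to be more alike between the libraries than other genes of similar counts. The median log2 ratio of the 14 was 0.19, beside 0.02 over all genes. Dct, the dopachrome tautomerase, was at 19060 CPM in Bap1_KO and 21091 CPM in Bap1_WT, and Tyrp1, the tyrosinase-related protein, at 17280 CPM in Bap1_KO and 15335 CPM in Bap1_WT. Oca2, a melanosomal membrane protein, was higher, at 611 CPM in Bap1_KO and 313 CPM in Bap1_WT (log2 ratio 0.96, 0.61 to 1.34). Gpnmb, a melanosomal glycoprotein, was lower, at 6576 CPM in Bap1_KO and 10938 CPM in Bap1_WT (−0.73, −0.80 to −0.66). Of 8 targets of Mitf outside melanin synthesis with at least 20 UMIs, 0 were higher and 2 lower, against the same 14.6% and 12.8% of all genes, with a median of −0.038. Cdkn1a, the cyclin-dependent kinase inhibitor p21, was at 576 CPM in Bap1_KO and 529 CPM in Bap1_WT, and Cdk2 at 518 CPM in Bap1_KO and 513 CPM in Bap1_WT. Ppargc1a, a co-activator of mitochondrial genes, was at 24.1 CPM in Bap1_KO and 85.4 CPM in Bap1_WT (−1.83, −2.89 to −0.80), and Diaph1 had an interval that includes 0.

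Other transcription factors of melanocytes and neural crest were sparser. Of 17 listed, 8 had at least 20 UMIs, of which 2 were higher and 4 lower, against 14.6% higher and 12.8% lower of all genes, with a median log2 ratio of −0.71. Sox4, a transcription factor of the Sox family, was at 111 CPM in Bap1_KO and 207 CPM in Bap1_WT (−0.91, −1.45 to −0.36), and Zeb2, a repressor needed in melanocyte differentiation, at 35.3 CPM in Bap1_KO and 77.3 CPM in Bap1_WT (−1.13, −2.08 to −0.17). Tfap2a, a factor of neural crest and skin, was at 33.7 CPM in Bap1_KO and 61.0 CPM in Bap1_WT, and its interval includes 0, as do those of the other 3 past 1.5-fold. Sox9, a relative of Sox10, was at 125 CPM in Bap1_KO and 85.4 CPM in Bap1_WT (0.55, −0.16 to 1.32).

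Few partners of the receptors reached 20 UMIs. In Kit signalling, 3 of 14 genes had at least 20 UMIs and 0 passed 1.5-fold, with the phosphatase Ptpn11 at 86.6 CPM in Bap1_KO and 89.5 CPM in Bap1_WT and the adaptor Grb2 at 54.5 CPM in Bap1_KO and 44.7 CPM in Bap1_WT. In the melanocortin pathway of Mc1r, 6 of 15 had at least 20 UMIs and 0 passed 1.5-fold. Of all genes, 27.4% passed 1.5-fold in either direction. With only 3 and 6 genes measured, neither 0 shows that its pathway was unchanged. Gnas, the stimulatory G protein subunit, was at 1840 CPM in Bap1_KO and 1725 CPM in Bap1_WT, and Prkar1a, a regulatory subunit of protein kinase A, at 468 CPM in Bap1_KO and 423 CPM in Bap1_WT. In the endothelin pathway 4 of 10 had at least 20 UMIs, of which 0 were higher and 2 lower, counts too small to set against the 14.6% higher and 12.8% lower of all genes. Gna11, a G protein subunit downstream of Ednrb, was at 112 CPM in Bap1_KO and 81.4 CPM in Bap1_WT (0.46, −0.27 to 1.26). Edn1, the ligand endothelin 1, had 10 UMIs in Bap1_KO and 11 in Bap1_WT (−1.48, −2.87 to −0.11), and the interval of Gnaq, with 13 UMIs in Bap1_KO and 9 in Bap1_WT, includes 0.

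Beyond Kcnj13 and Cited1 themselves, only Cited2 of their families reached 20 UMIs in pigment-high cells. The other relatives were too sparse to compare between the libraries. None of 14 other inwardly rectifying potassium channel genes reached 20 UMIs in pigment-high cells, and 11 of them had 0 UMIs in both libraries. Cited2, the relative of Cited1, was lower, at 91.4 CPM in Bap1_KO and 163 CPM in Bap1_WT (log2 ratio −0.83, −1.44 to −0.21), and Cited4 had 2 UMIs in Bap1_KO and 0 in Bap1_WT.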

How the data were processed

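Single-cell RNA was counted in 2 libraries, 1 per genotype, each from pooled neonates, with about 6000 cells loaded per the labels' protocols. The authors deposited 1 table of UMI counts per library, genes by cells, with no normalization; the submitters' processing notes list Cell Ranger 2.1, Seurat 2.0 and mm10 and give no roles. RefSeq (GRCm38.p6) gave a symbol for 31049 of the 36528 NCBI identifiers and the coordinates of the 8 genes, and strands came from the annotation of the same build. The 5479 without one, with 2.67% of UMIs, were kept in all totals. Whether antisense or intronic reads were counted is not given in the sources used here.

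Cells were kept with at least 500 genes and at most 10% mitochondrial UMIs, which removed 16 cells in Bap1_KO and 13 in Bap1_WT. Scrublet (assumed rate 0.02) marked 6 more cells (0.341%) in Bap1_KO and 2 (0.104%) in Bap1_WT as doublets, too few to show that it worked, and cells holding pigment and keratin RNA together were kept. Clusters were built over both libraries without integration and without the 8 genes (totals scaled to 10000, log transform, 2000 variable genes, 30 principal components, 15 neighbours, Leiden resolution 0.5). Clusters with at least 3 melanocyte, Schwann cell or myeloid markers at 5-fold were named after them, so names are rebuilt. Keratin-rich joins 6 clusters, 1 with suprabasal keratinocyte markers at 5-fold and 5 with under 3 markers of any list, and a cluster with 6 fibroblast markers was left unnamed. Levels are CPM, UMIs per 1000000 UMIs summed over a class. Intervals are exact Poisson (levels), conditional exact (ratios) and Clopper-Pearson (shares), all at 95%. A difference counted as higher or lower at 1.5-fold with at least 20 UMIs, and the floor was 3 UMIs. With 1 library per genotype no test was made.

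The 8 genes, the gene lists and the thresholds were chosen with earlier results of these data known. All 8 genes are described; from each list the 2 genes of highest CPM and up to 3 past 1.5-fold with the largest change are named, and for each of the 8 the 3 genes of most similar pattern, of which some are not reported here; Ptgs2, Bap1 and Gigyf2 were added after their values were seen. Calculations of ratios and their intervals were checked on simulated counts. Software was scanpy 1.11.5 with igraph 0.11.9, scipy 1.17.1, numpy 2.4.6 and matplotlib 3.10.9 under Python 3.11.15.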

Additional observations from a re-analysis of the deposited data

How the results depend on the processing

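No paired analysis was possible because each genotype had 1 library. Under all 13 alternatives run for pigment-high cells, Kcnj13 and Cited1 stayed past 1.5-fold higher in Bap1_KO, with log2 ratios between 3.21 and 4.18 for Kcnj13 and between 1.21 and 1.99 for Cited1. The number of members past 1.5-fold higher was 2 in the result as given and 3 after thinning to 5000 UMIs. The number past 1.5-fold lower was 1 as given (Mc1r), 2 with no cell filter (Mitf at −0.63 and Mc1r at −0.70), and 0 with a pigment threshold of 10000 or 40000 CPM, with thinning, with a common UMI minimum of 10065 or without the top cell of each library. Mc1r reversed with thinning, a single random draw from few UMIs, to a log2 ratio of 0.75, and the cause was not tested. A threshold of 10000 CPM moved Mitf to 0.27, Sox10 to 0.23, Pax3 to 0.41, Ednrb to 0.45 and Cited1 to 1.99. All genes past 1.5-fold fell in number with a higher UMI minimum, where fewer genes were counted. At 20 UMIs 829 were higher and 723 lower of 5662 genes. At 50 UMIs 274 were higher and 210 lower of 2983 genes, and at 100 UMIs 97 were higher and 56 lower of 1597. The share past 1.5-fold thus fell as well. In keratin-rich clusters Kcnj13 stayed between 2.18 and 2.76, Cited1 between 1.07 and 1.49 and Sox10 between −1.32 and −0.68. Keratin-rich cells with no pigment UMI gave a value for Sox10 only. The choices of pigment-high cells also in the melanocyte-like cluster and of keratin-rich cells with 1 to 10 pigment UMIs were made after seeing the data. Depth limits Kit and Mc1r most, with 18 and 15 UMIs in Bap1_WT.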
